A study of Mus musculus with 2 samples.

Results

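Acod1, Arg2 and Ptgs2 encode 3 metabolic enzymes that immune cells switch on during inflammation, and their unique molecular identifier (UMI) counts were followed across gated marrow cell types in 2 single-cell libraries. The members were chosen by symbol, with earlier results of these counts known, and all 3 were found, as 3 of 32285 gene rows. They lie on GRCm38 (GENCODE vM21) at chr14:103046977-103056573 (Acod1, ENSMUSG00000022126), chr12:79130777-79156301 (Arg2, ENSMUSG00000021125) and chr1:150100031-150108227 (Ptgs2, ENSMUSG00000032487), each on the plus strand. One library came from osteoporotic mice with a fracture and a magnesium (Mg) nail inside the femur, and the other from such mice with a nail labelled Mg-TAGelMA. Each library mixed femoral marrow with cells that stuck to the nail, so that the marrow and the nail surface cannot be told apart. Osteoporosis, fracture and a magnesium-based nail were shared by both groups, and strain, age, sex, time after implantation and the number of mice behind a library are not given in the labels. With 1 library per group there is no replicate check, so no p-value is given, and every interval below is an exact 95% interval that covers counting error only.

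Acod1 is the mitochondrial enzyme that makes itaconate from cis-aconitate, an intermediate of the citric acid cycle. Itaconate inhibits succinate dehydrogenase and modifies KEAP1, which releases the transcription factor NRF2 (encoded by Nfe2l2). Arg2 is the mitochondrial arginase that splits arginine into ornithine and urea, while Arg1 is its cytosolic counterpart and Nos2 draws on the same arginine to make nitric oxide. Ptgs2 (COX-2) is the inducible cyclooxygenase that turns arachidonic acid into prostaglandin H2, from which terminal synthases make prostaglandins and thromboxane. In marrow and bone, prostaglandin E2 made through COX-2 is known for its part in fracture repair, and Acod1 is best known from macrophages and neutrophils exposed to bacterial products.

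The sequences just upstream of the start sites of Acod1 and Ptgs2 are shown because these genes rose together along the neutrophil lineage while their ratios between the libraries differed. They come from the RefSeq promoter table (GRCm38.p6), which held 2 of the 3 members, are written 5′ to 3′ on the plus strand, and carry in capitals the motif matches that lie in the printed stretch.
Acod1, chr14:103046762-103046976: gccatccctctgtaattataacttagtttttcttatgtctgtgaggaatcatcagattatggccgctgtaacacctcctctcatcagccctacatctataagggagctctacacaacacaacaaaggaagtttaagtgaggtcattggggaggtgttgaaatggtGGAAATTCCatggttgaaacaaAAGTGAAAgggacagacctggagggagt
Ptgs2, chr1:150099781-150100030: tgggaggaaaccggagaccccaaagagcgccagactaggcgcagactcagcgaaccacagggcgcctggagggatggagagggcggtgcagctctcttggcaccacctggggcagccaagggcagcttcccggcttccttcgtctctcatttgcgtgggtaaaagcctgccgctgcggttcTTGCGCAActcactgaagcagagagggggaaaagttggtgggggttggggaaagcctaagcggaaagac
The capitals in Acod1 are GGAAATTCC, a match to GGNNNTTCC (a shortened kappaB pattern, a palindrome read on both strands at the same place), and AAGTGAAA, a match to AANNGAAA (a shortened IRF pattern). They begin 85 and 63 bases before the RefSeq start, and TATAAA begins 28 bases before it, past the end of the printed stretch. Each of these patterns is common: 18.5% of the 32851 promoter windows (250 bases before to 50 after a start) hold GGNNNTTCC on either strand, 23.9% hold AANNGAAA and 13.6% hold TATAAA. The capitals in Ptgs2 are TTGCGCAA, a C/EBP palindrome that begins 69 bases before the start and occurs in 0.183% of the windows. Just past the Ptgs2 start, ACGTCA (CRE core, 7.51% of windows) begins 12 bases and CACGTG (E-box, 7.15%) 16 bases downstream, and the pair overlap by 2 bases. GGNNNTTCC, AANNGAAA and TATAAA had no match in the Ptgs2 window, and TTGCGCAA, ACGTCA and CACGTG had none in the Acod1 window. These are matches of letters in a window, chosen with the sequences in view, and say nothing of binding.

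The libraries held 9466 (Mg) and 7591 (Mg-TAGelMA) barcodes with 58261391 and 79890998 UMIs, of which 8116 and 7262 cells were kept at a median of 3809 and 6765.5 UMIs. The libraries shared 21 barcodes. They were counted with different Cell Ranger versions, 5.0.0 and 7.0.1, so that software and nail cannot be told apart. The row Gm42418, which overlaps a ribosomal RNA repeat, took 6.91% of all Mg counts and 0.109% of all Mg-TAGelMA counts. Cells were gated by 19 marker lists, classes are written "-like", 441 and 393 cells lay near the boundary of their class, and 45 and 9 took no class. Among classes with more than 10 cells in a library, a class's own markers outnumbered those of any other list among its 10 leading genes. The exception was the conventional dendritic-like class of the Mg library, which tied 1 to 1 with plasmacytoid markers. That class is too small to be used here. In the Mg-TAGelMA library, nonclassical monocyte-like cells had only 1 of their own markers among the leading genes, and plasma cell-like cells 2. Mature neutrophil-like cells carried all 10 of their markers in both libraries, including Cxcr2, Retnlg and Mmp9.

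Over all cells, the members were detected in both libraries and were higher in the Mg-TAGelMA library. Acod1 had 303 UMIs with the Mg nail and 7209 with the Mg-TAGelMA nail, 5.49 (interval 4.89 to 6.15) and 95.4 (93.2 to 97.6) counts per 1e6 counts of the same cells (CPM). Arg2 had 146 and 5602 UMIs, or 2.65 (2.23 to 3.11) and 74.1 (72.2 to 76.1) CPM. Ptgs2 had 737 and 4916 UMIs, or 13.4 (12.4 to 14.4) and 65.0 (63.2 to 66.9) CPM. In none of the 3 did the intervals of the libraries overlap, and the ratios of Mg-TAGelMA to Mg were 17.4 (15.5 to 19.5) for Acod1, 28.0 (23.8 to 33.2) for Arg2 and 4.87 (4.504 to 5.27) for Ptgs2. A gene is called here when this interval lies wholly beyond 2-fold and the gene reaches 10 CPM in the higher library. All 3 members were called higher, against 15.4% of the 9017 genes measured, and 7.77% were called lower. Since the members were picked with such values known, this count is a description and supports nothing.

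The make-up of the libraries moved with these totals. Mature neutrophil-like cells made up 408 (5.03%) of the kept Mg cells and 2012 (27.7%) of the kept Mg-TAGelMA cells. They held 45.5%, 48.6% and 47.8% of the Acod1, Arg2 and Ptgs2 UMIs of the Mg library, and 70.3%, 71.3% and 63.3% of those of the Mg-TAGelMA library. If each class kept its Mg level while classes took their Mg-TAGelMA share of UMIs, the total would be 67.5 CPM for Ptgs2, 27.4 CPM for Acod1 and 13.5 CPM for Arg2. The level measured over all cells of the Mg-TAGelMA library was 65.0 CPM for Ptgs2, 95.4 CPM for Acod1 and 74.1 CPM for Arg2. With the Mg-TAGelMA levels at the Mg make-up, the totals would be 17.9 CPM for Ptgs2, 23.2 CPM for Acod1 and 22.7 CPM for Arg2, beside measured Mg levels of 13.4, 5.49 and 2.65 CPM. These sums hold each class at a fixed level, while the ratios within classes given below differ from 1. The share of a class also depends on how marrow and nail cells were pooled.

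Ranked by class, Acod1 in the Mg-TAGelMA library was highest in basophil and mast-like cells, at 1114 CPM (1049 to 1181), followed by mature neutrophil-like cells at 461.8 CPM (449 to 475). All other classes of at least 50 cells lay far below, at 27.3 CPM in nonclassical monocyte-like, 24.2 in immature neutrophil-like, 17.8 in monocyte-like, 15.4 in plasmacytoid dendritic-like, 13.03 in early granulocyte-like, 11.9 in T-like, 10.1 in B lineage-like, 9.16 in plasma cell-like and 8.31 in erythroid-like cells. Among these lower classes the intervals of neighbours overlapped, except between immature neutrophil-like and monocyte-like cells. In the Mg library Acod1 stood at 155.6 CPM (131 to 184) in mature and 13.5 CPM (11.2 to 16.3) in immature neutrophil-like cells, and between 0.548 and 4.03 CPM in the other classes of that size, whose neighbours overlapped. The 4.03 CPM of NK-like cells and the 2.53 CPM of nonclassical monocyte-like cells rest on 2 and 1 UMIs.

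Arg2 in the Mg-TAGelMA library was highest in mature neutrophil-like cells, at 364.1 CPM (353 to 376). It was followed by nonclassical monocyte-like cells at 72.9 CPM (46.7 to 108), monocyte-like cells at 57.1 CPM (52.7 to 61.8) and immature neutrophil-like cells at 32.6 CPM (30.03 to 35.4). The 2 monocyte classes overlapped, while the steps from mature neutrophil-like cells to them and from monocyte-like to immature neutrophil-like cells did not. Basophil and mast-like cells stood at 23.0 CPM (14.6 to 34.4), and the remaining classes between 7.13 and 14.0 CPM, each overlapping its neighbour. In the Mg library Arg2 stood at 80.1 CPM in mature neutrophil-like (71 UMIs), 5.70 (4.202 to 7.56) in immature neutrophil-like and 1.81 (0.727 to 3.72) in monocyte-like cells. These 3 did not overlap with each other. NK-like cells held 1 Arg2 UMI (2.02 CPM), the next classes lay between 0.328 and 1.05 CPM, and nonclassical monocyte-like, plasmacytoid dendritic-like and stem and progenitor-like cells had 0 UMIs.

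Ptgs2 in the Mg-TAGelMA library was highest in basophil and mast-like cells, at 607.8 CPM (561 to 658), then in mature neutrophil-like cells at 283.7 CPM (274 to 294), monocyte-like cells at 39.0 CPM (35.4 to 42.9) and immature neutrophil-like cells at 25.7 CPM (23.4 to 28.2). None of these 4 overlapped with the next. Nonclassical monocyte-like (21.3 CPM), early granulocyte-like (12.9), plasma cell-like (12.2), plasmacytoid dendritic-like (6.61), erythroid-like (5.46), B lineage-like (5.28) and T-like cells (4.93) followed, each overlapping its neighbour. In the Mg library Ptgs2 stood at 397.0 CPM (357 to 441) in mature neutrophil-like, 22.6 (19.5 to 26.0) in immature neutrophil-like, 17.04 (13.2 to 21.7) in monocyte-like and 7.58 (4.80 to 11.4) in early granulocyte-like cells, of which immature neutrophil-like and monocyte-like cells overlapped. The other classes lay at 3.15 CPM or below.

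**Figure D1:**
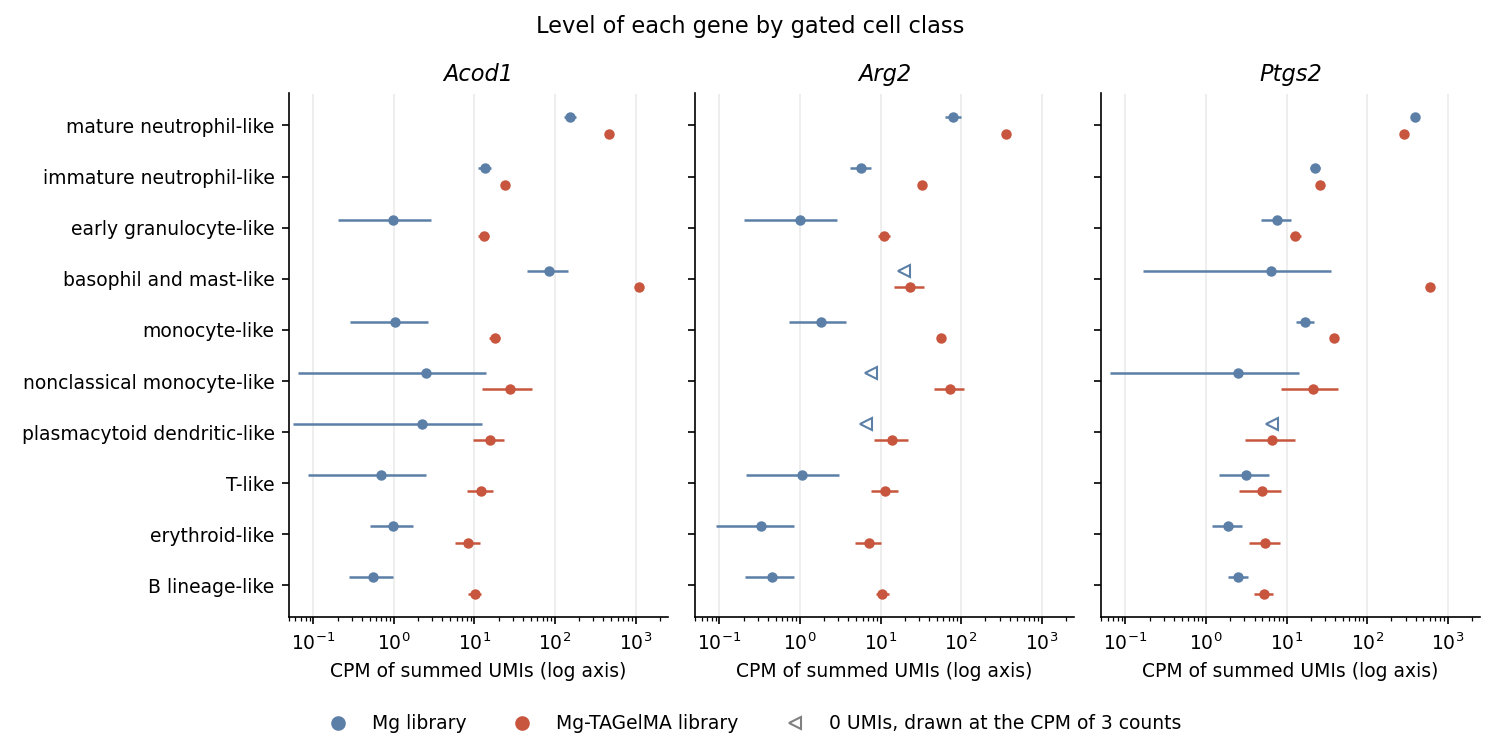
Each panel plots the level of a gene (CPM of the summed UMIs of a class, log axis) for 10 gated classes in the Mg and Mg-TAGelMA libraries, with exact 95% Poisson intervals as bars and classes with 0 UMIs drawn at the CPM of 3 counts. Mature neutrophil-like cells were high for all 3 genes in both libraries, and basophil and mast-like cells of the Mg-TAGelMA library were high for Acod1 (1114 CPM) and Ptgs2 (607.8 CPM) but not for Arg2 (23.0 CPM).

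Part of every low level can come from RNA free in the suspension, which droplets take up with the cell. B lineage-like cells, which do not make the neutrophil markers, served as a rough gauge of it. In the Mg library they held 0.548 CPM of Acod1, 0.448 of Arg2 and 2.49 of Ptgs2, and in the Mg-TAGelMA library 10.1, 10.6 and 5.28 CPM. The 10 mature neutrophil markers summed to 0.693% of their mature neutrophil-like level in the B lineage-like cells of the Mg library, where the members stood at 0.352%, 0.560% and 0.628% of theirs. In the Mg-TAGelMA library the markers stood at 3.15% and the members at 2.19%, 2.90% and 1.86%. The members of B lineage-like cells therefore lay at or below the share that the neutrophil markers had there. These markers also set the gate, which itself keeps them low outside the mature class, while the members took no part in it. A member share above or below that of the markers is thus a description only. The B lineage-like ratios of 18.4 for Acod1 and 23.6 for Arg2 passed the 2-fold rule, as 17.9% of genes did upward and 2.44% downward. Whether these counts come from free RNA or from the cells was not tested, so no expression is read from them. T-like cells had ratios of 17.03 for Acod1 and 11.0 for Arg2 on 2 and 3 Mg UMIs, against 14.4% of genes called upward and 1.58% downward. Their Arg2 stood at 1.31% (Mg) and 3.16% (Mg-TAGelMA) of the mature neutrophil-like level, where the markers stood at 0.781% and 3.02%, so that it was not below the share of the markers there. Erythroid-like cells stayed under 10 CPM for every member.

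Within mature neutrophil-like cells, the main site of the members, Acod1 and Arg2 stood higher with the Mg-TAGelMA nail and Ptgs2 did not. Acod1 had 138 UMIs (155.6 CPM) with the Mg nail and 5065 (461.8 CPM) with the other, a ratio of 2.97 (2.51 to 3.54). Arg2 had 71 UMIs (80.1 CPM) and 3994 UMIs (364.1 CPM), a ratio of 4.55 (3.60 to 5.83). Both lay wholly beyond 2-fold, as did 8.4% of the 6858 genes measured in this class in the upward and 5.72% in the downward direction. Ptgs2 had 352 UMIs (397.0 CPM) and 3112 UMIs (283.7 CPM), a ratio of 0.715 (0.640 to 0.800), which is lower but within 2-fold.

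Scaling mattered in this class. TMM scaling raised every ratio by 0.29 on the log2 scale, and the share of called genes that were higher went from 59.5% to 80.1%. A total without Gm42418 and AY036118 lowered every ratio by 0.26 and took that share to 37.7%. Across these scalings the Acod1 ratio ran from 2.47 to 3.62, and Ptgs2 stayed below 1, from 0.595 to 0.871. When each cell was thinned to 1000 UMIs, the Ptgs2 ratio was 0.934 (0.767 to 1.15), whose interval takes in 1. Of the Mg cells 401 (98.3%) fell in cluster 0, and the Mg-TAGelMA cells fell in clusters 3 (48.9%), 4 (42.6%) and 6 (6.66%), and each of these clusters held at most 1 cell of the other library. By the class of most of their cells, clusters 0 and 6 were immature neutrophil-like and clusters 3 and 4 mature neutrophil-like. By the markers among their leading genes, clusters 0, 3 and 4 were led by mature neutrophil markers. Cluster 6 tied between 1 immature and 1 mature marker. Within the gated mature class the 8 immature markers summed to 19405 CPM in the Mg and 10371 CPM in the Mg-TAGelMA cells, and the 10 mature markers to 29592 and 38842 CPM. The part of this shift in the ratios of the members was not tested, and levels by band of maturity follow below.

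**Figure D2:**
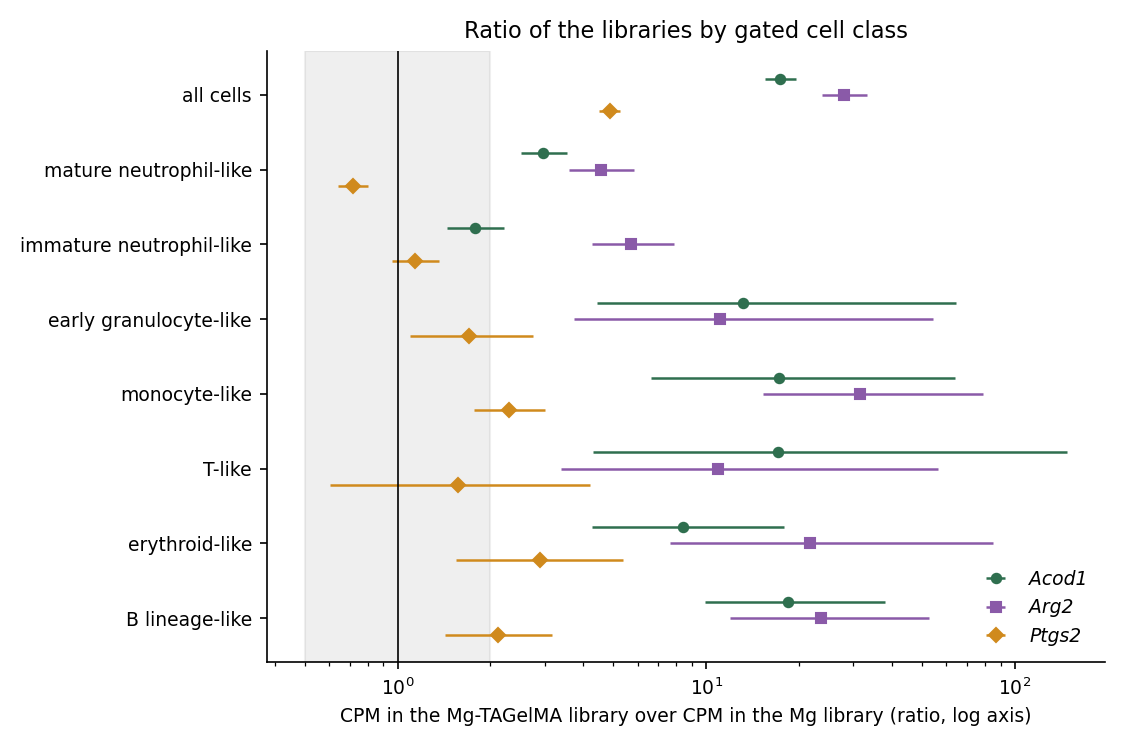
The plot gives the ratio of the Mg-TAGelMA to the Mg level (log axis) for each gene in all cells and in 7 gated classes, with exact 95% intervals as bars, a line at 1 and a grey band from 0.5 to 2. In mature neutrophil-like cells Acod1 (2.97) and Arg2 (4.55) lay above the band while Ptgs2 (0.715) lay inside it below 1.

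The share of mature neutrophil-like cells with a UMI depends on depth, and the libraries differed in this class, at medians of 1716.5 and 5121 UMIs. The shares were therefore compared after thinning each cell to 1000 UMIs. This left 323 of 408 Mg cells and 1990 of 2012 Mg-TAGelMA cells. Acod1 was found in 10.2% (7.14% to 14.0%) of thinned Mg cells and 27.7% (25.7% to 29.7%) of thinned Mg-TAGelMA cells, and in 20.1% and 57.3% of the unthinned cells. Arg2 was found in 6.81% (4.32% to 10.1%) and 30.7% (28.7% to 32.8%) of thinned cells, and in 14.5% and 73.7% before thinning. For these 2 genes the intervals did not overlap. Ptgs2 was found in 19.5% (15.3% to 24.3%) and 22.5% (20.7% to 24.4%) of thinned cells, and in 26.7% and 52.2% before. The Ptgs2 intervals overlapped and the order of the shares went against that of the levels, so no order of the libraries is read from them. In thinned B lineage-like cells (median depths of 3487 and 4980 UMIs before thinning) the shares were 0.0558% and 0.415% for Acod1, 0.0558% and 1.31% for Arg2, and 0.363% and 0.890% for Ptgs2.

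The UMIs per cell showed how unevenly the transcripts were spread. In the Mg-TAGelMA library, 859 of 2012 mature neutrophil-like cells (42.7%) had 0 Acod1 UMIs, while 52 cells (2.58%) had 16 or more, up to 64. The 10% of cells with the most Acod1 held 52.1% of its UMIs in that class. Arg2 was spread more evenly, with 530 cells (26.3%) at 0, 631 cells (31.4%) at 2 to 3 UMIs, 2 cells at 16 or more and 33.1% of UMIs in the top 10% of cells. Ptgs2 had 962 cells (47.8%) at 0, 9 cells at 16 or more and 47.2% of UMIs in the top 10%. In the shallower Mg cells 79.9%, 85.5% and 73.3% had 0 UMIs of Acod1, Arg2 and Ptgs2, and the highest cells held 6, 3 and 20.

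**Figure D3:**
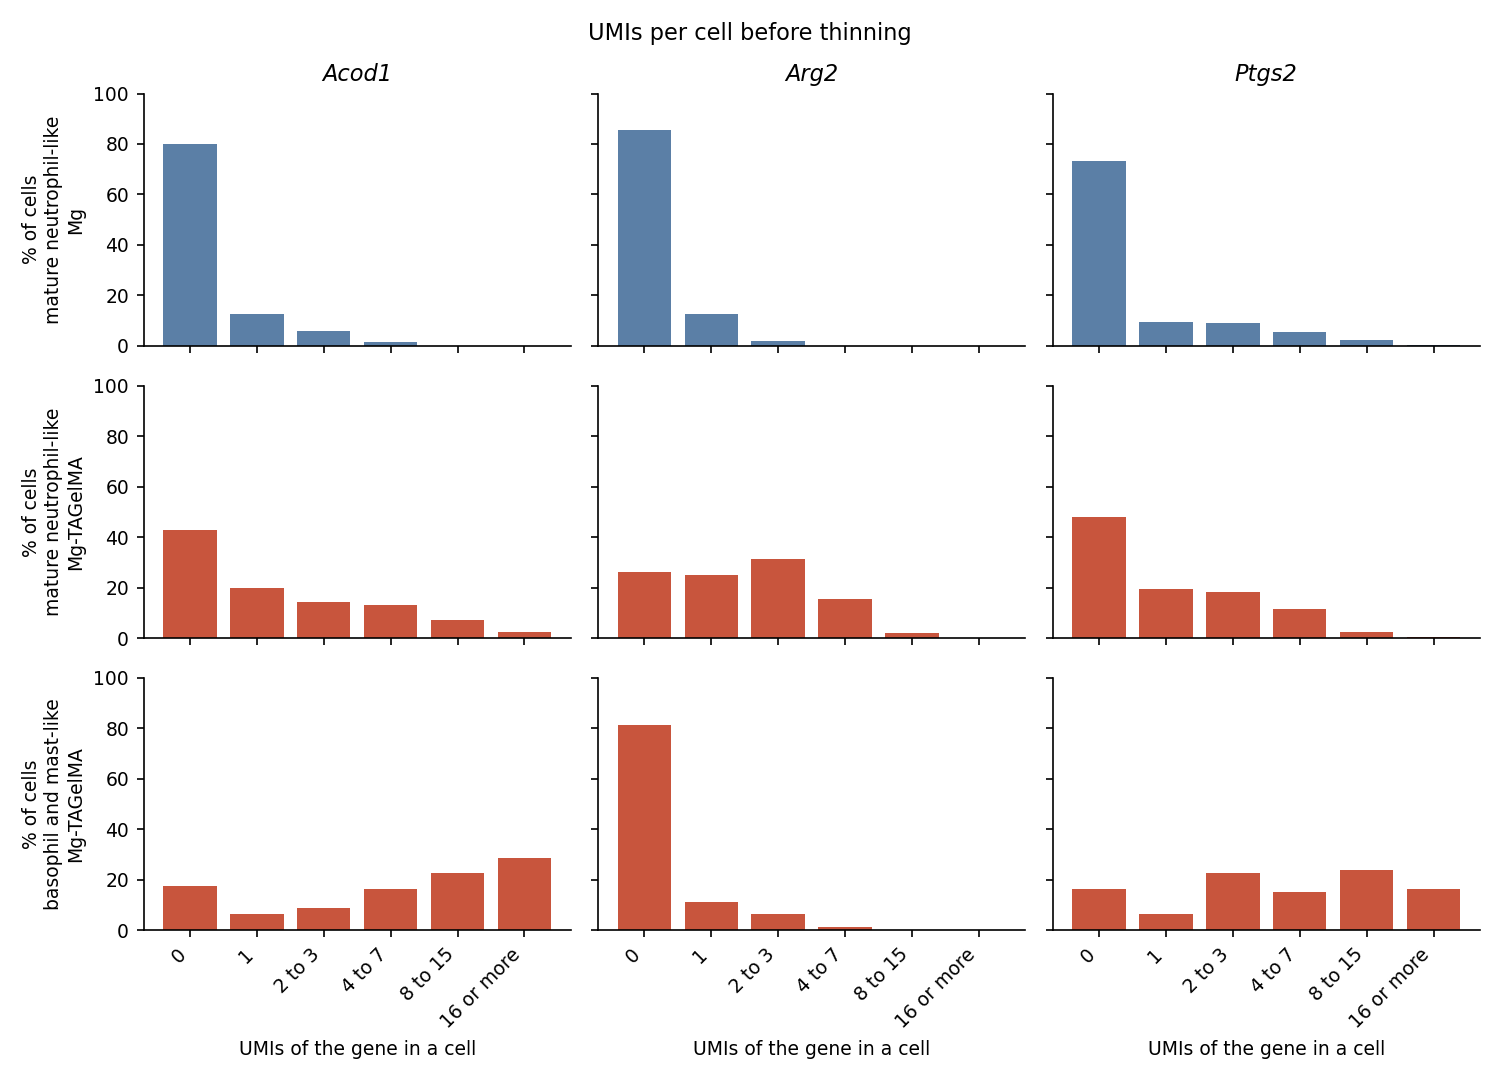
Bars give the percent of cells with the stated number of UMIs of each gene before thinning, for mature neutrophil-like cells of the Mg library (408 cells) and the Mg-TAGelMA library (2012 cells) and basophil and mast-like cells of the Mg-TAGelMA library (80 cells). Acod1 reached 16 or more UMIs in 28.8% of the basophil and mast-like cells, and Arg2 was at 0 in 81.2% of them.

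To follow the members along the lineage, all immature and mature neutrophil-like cells were placed in 6 bands by the difference of their mature and immature marker scores, which hold no member. In both libraries each member was lowest in band 1, the most immature, and highest in band 6. Acod1 went from 5.77 to 237.2 CPM in the Mg library and from 15.5 to 754.1 CPM in the Mg-TAGelMA library. Arg2 went from 0.911 to 222.9 CPM and from 13.9 to 488.1 CPM. Ptgs2 went from 8.80 to 805.2 CPM and from 12.1 to 426.8 CPM.

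The 3 genes differed in where along the bands the libraries parted. Arg2 was higher in the Mg-TAGelMA library in all 6 bands, with ratios of 15.3 (6.87 to 42.3), 3.39, 2.42, 5.03, 4.12 and 2.19 (1.54 to 3.23) from band 1 to 6. The first of these rests on 6 Mg UMIs, and the Mg-TAGelMA level of band 1, 13.9 CPM (11.8 to 16.3), overlapped that of B lineage-like cells, 10.6 CPM (8.70 to 12.7). Acod1 had a ratio of 2.68 (1.88 to 3.92) in band 1, ratios of 1.17, 0.803 and 0.895 with intervals that took in 1 in bands 2 to 4, and 1.80 (1.37 to 2.41) and 3.18 (2.26 to 4.62) in bands 5 and 6. Its Mg-TAGelMA level in band 1, 15.5 CPM (13.2 to 17.9), lay above the 10.1 CPM (8.28 to 12.2) of B lineage-like cells. Ptgs2 was lower in the Mg-TAGelMA library in bands 2 to 6, at ratios of 0.648, 0.685, 0.367 (0.299 to 0.453), 0.606 and 0.530 (0.438 to 0.647), and at 1.38 (1.01 to 1.91) in band 1. In bands 2 to 6 the thinned shares of cells with Ptgs2 overlapped between the libraries, at 33.9% (22.1% to 47.4%) of 59 Mg and 29.6% (26.8% to 32.5%) of 1011 Mg-TAGelMA cells in band 6. Band 6 held 70 Mg and 1011 Mg-TAGelMA cells.

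**Figure D4:**
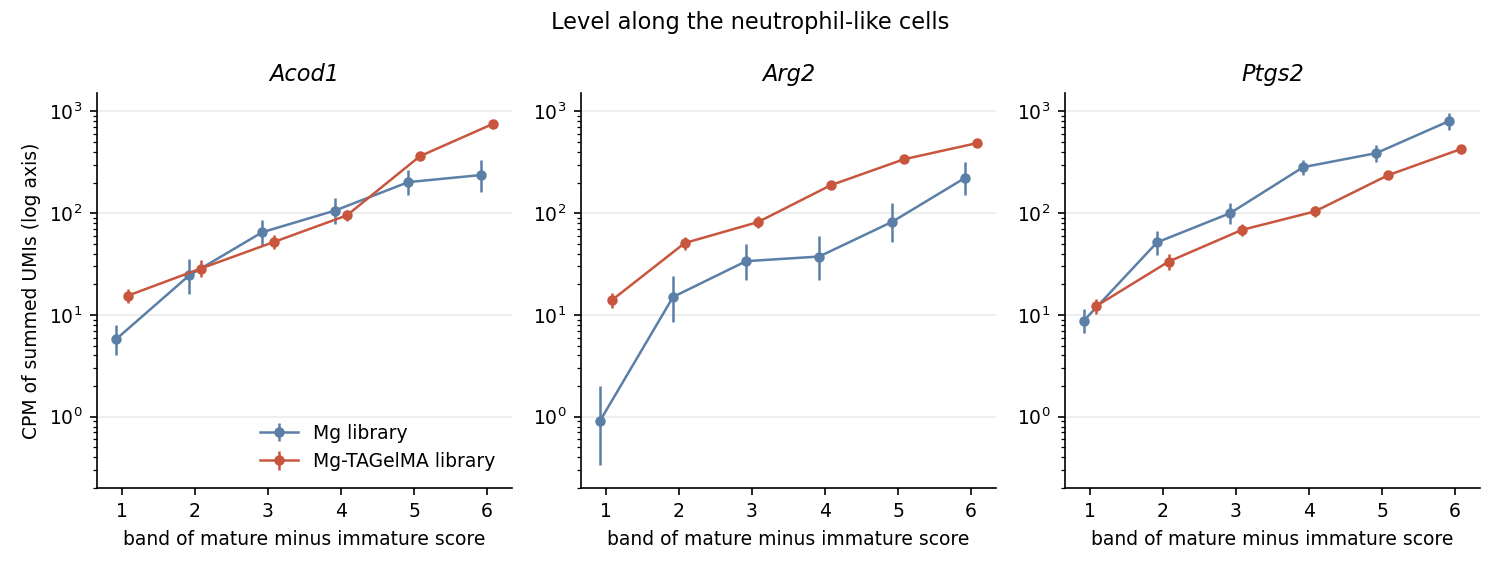
Each panel plots the level (CPM, log axis) of a gene over 6 bands of the mature minus immature marker score in neutrophil-like cells of the 2 libraries, with exact 95% Poisson intervals. Each gene was highest in band 6 in both libraries. Arg2 of the Mg-TAGelMA library lay above the Mg library in every band, Ptgs2 lay below it in bands 2 to 6, and for Acod1 the interval of the ratio lay above 1 in bands 1, 5 and 6.

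Immature neutrophil-like cells, the cells of the late granule stage that carry Ltf, Camp and Ngp, had lower levels. Acod1 had 114 UMIs (13.5 CPM) with the Mg nail and 427 (24.2 CPM) with the Mg-TAGelMA nail, a ratio of 1.78 (1.45 to 2.21), and Ptgs2 had 190 UMIs (22.6 CPM) and 455 UMIs (25.7 CPM), a ratio of 1.14 (0.961 to 1.36). Arg2 had 48 UMIs (5.70 CPM) and 577 UMIs (32.6 CPM), a ratio of 5.73 (4.26 to 7.86). Only Arg2 lay wholly beyond 2-fold, as did 8.44% of 7249 genes upward and 3.74% downward. Early granulocyte-like cells, marked by Elane and Mpo, had 3 UMIs each of Acod1 and Arg2 in the Mg library, and 164 (13.03 CPM) and 138 (11.0 CPM) in the Mg-TAGelMA library, close to the B lineage-like level. Both passed the 2-fold rule, as 8.62% of 8429 genes did upward and 2.17% downward. Ptgs2 there had 23 UMIs (7.58 CPM) and 162 UMIs (12.9 CPM), a ratio of 1.70 (1.09 to 2.76).

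In monocyte-like cells, all 3 members had higher levels in the Mg-TAGelMA library, and Arg2 and Acod1 were called. Arg2 had 7 UMIs in 454 Mg cells (1.81 CPM) and 619 in 715 Mg-TAGelMA cells (57.1 CPM), a ratio of 31.6 (15.2 to 78.9). The Mg-TAGelMA level was 15.7% of the mature neutrophil-like level, while the mature neutrophil markers stood at 5.99% of theirs, and was above the 10.6 CPM of B lineage-like cells without overlap. Acod1 had 4 UMIs (1.03 CPM) and 193 UMIs (17.8 CPM), a ratio of 17.2 (6.62 to 63.9), and its Mg-TAGelMA level was 3.85% of the mature neutrophil-like level, below the share of the neutrophil markers. The gate itself keeps those markers low in this class. Whether the member counts belong to the monocyte-like cells was not tested. Ptgs2 had 66 UMIs (17.04 CPM) and 423 UMIs (39.0 CPM), a ratio of 2.29 (1.76 to 3.01), not wholly beyond 2-fold. The Ptgs2 level was 4.29% (Mg) and 13.7% (Mg-TAGelMA) of the mature neutrophil-like level, where the neutrophil markers stood at 2.69% and 5.99%. Of 8650 genes measured in this class 12% were called higher and 1.38% lower.

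After thinning, Arg2 was found in 0 of 426 Mg monocyte-like cells, which allows a share of up to 0.862% (exact upper limit), and in 6.81% (5.06% to 8.93%) of 705 Mg-TAGelMA cells. Acod1 was found in 0.235% and 1.70% (0.883% to 2.95%), and Ptgs2 in 2.11% (0.970% to 3.97%) and 4.26% (2.89% to 6.02%), of which the Ptgs2 intervals overlapped. Before thinning (medians of 7956.5 and 12886 UMIs) the shares were 1.54% and 46.3% for Arg2, 0.881% and 17.9% for Acod1, and 9.47% and 28.5% for Ptgs2. The Mg cells of this class lay mostly in cluster 18 (74.0%). Another 81 (17.8%) lay in cluster 24, which was led by macrophage markers but whose most frequent class was monocyte-like. The Mg-TAGelMA cells lay in cluster 14 (65.7%), in cluster 11 (18.9%), led by early granulocyte markers, and in cluster 21 (12.03%), led by plasmacytoid dendritic markers. Among the 336 and 472 cells in clusters led by monocyte markers, the ratios were 40.9 (18.6 to 112) for Arg2, 21.7 (7.25 to 106) for Acod1 and 2.27 (1.69 to 3.10) for Ptgs2. Cluster 18 held 365 Mg and 3 Mg-TAGelMA cells, and cluster 14 held 0 and 483, so these ratios do not compare cells matched by cluster. In nonclassical monocyte-like cells, Arg2 had 0 UMIs in 91 Mg cells and 24 UMIs in 59 Mg-TAGelMA cells (72.9 CPM). With the Mg count set to 3 the ratio was 9.61, with an exact lower limit of 7.23, and Arg2 was called. This call stood against 7.17% of 8679 genes called higher and 0.691% lower there. Only 1 of the 10 leading genes of these Mg-TAGelMA cells was a marker of the class. In plasmacytoid dendritic-like cells 0 members were called, against 8.4% of 9258 genes upward and 1.62% downward.

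Basophil and mast-like cells carried the highest Acod1 and Ptgs2 levels of the classes with at least 50 cells in the Mg-TAGelMA library. The class was gated by Mcpt8, Prss34, Fcer1a, Cpa3, Ms4a2, Cd200r3 and Gata2, all 7 of which were detected, and all 80 of its Mg-TAGelMA cells fell in cluster 25, led by 6 of these markers. Acod1 had 1116 UMIs there (1114 CPM), in 66 of 80 cells (82.5%), with a median of 11 UMIs in the cells that had any. Ptgs2 had 609 UMIs (607.8 CPM), in 67 cells (83.8%), with a median of 7. The class was 1.10% of the kept cells and held 15.5% of the Acod1 and 12.4% of the Ptgs2 UMIs of its library. The cell with the most Acod1 held 97 UMIs, 8.69% of the Acod1 UMIs of the class.

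Arg2 did not share this pattern. It had 23 UMIs (23.0 CPM, 14.6 to 34.4) in 15 of the 80 cells. After thinning, Acod1 was found in 39 of 79 cells (49.4%, 37.9% to 60.9%) and Ptgs2 in 38 (48.1%, 36.7% to 59.6%), while Arg2 was found in 0 of 79, which allows a share of up to 4.56%. The Arg2 level was 6.30% of that of mature neutrophil-like cells, as the mature neutrophil markers were at 6.17%, whereas Acod1 stood at 241.2% and Ptgs2 at 214.2%. The median of those summed markers was 18.9 per 10000 UMIs in these cells and 369.4 in mature neutrophil-like cells. Ptges, the inducible prostaglandin E synthase that acts after COX-2, had 40 UMIs in 24 of these cells (39.9 CPM, 28.5 to 54.4). In the same library it stood at 17.5 CPM (15.6 to 19.6) in immature and 7.02 CPM (5.54 to 8.77) in mature neutrophil-like cells.

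The Mg library held 39 basophil and mast-like cells, under the 50 set for a comparison, at a median of 1836 UMIs against 11170.5. Of these, 23 (59.0%) fell in cluster 25 and 14 (35.9%) in cluster 7, whose most frequent class was B lineage-like. By cluster the Mg gate was thus more mixed than the Mg-TAGelMA gate, where all 80 cells fell in cluster 25. Summed markers of other classes went both ways. In the Mg and Mg-TAGelMA cells, eosinophil markers stood at 6.46 and 3581 CPM and early granulocyte markers at 1453 and 3942 CPM. B lineage markers stood at 878 and 333 CPM, and stem and progenitor markers at 1460 and 1086 CPM. The 39 Mg cells held 13 Acod1 UMIs in 5 cells (84.0 CPM, 44.7 to 144), of which 8 were in 1 cell. They held 1 Ptgs2 UMI (6.46 CPM, 0.164 to 36.0) and 0 Arg2 UMIs. Thinned to 1000 UMIs, 3 of 22 cells had Acod1 (13.6%, 2.91% to 34.9%) and 0 of 22 had Ptgs2, which allows a share of up to 15.4%. These lie below the Mg-TAGelMA shares without overlap. The ratios from these counts were 13.3 (7.72 to 24.99) for Acod1 and 94.1 (16.8 to 3723) for Ptgs2, the latter resting on 1 Mg UMI. In this pair of classes 3.17% of 8891 genes were called higher and 1.73% lower.

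The members were then compared within single mature neutrophil-like cells thinned to 1000 UMIs, where all cells have the same depth but differ in maturity. Of 1990 Mg-TAGelMA cells, 70 held UMIs of all 3 members, 324 of 2, 752 of 1 and 844 of 0. Of 323 Mg cells, 0 held all 3, 14 held 2, 90 held 1 and 219 held 0. In the Mg-TAGelMA cells Ptgs2 was found in 32.1% (28.2% to 36.2%) of the 551 cells with Acod1 and in 18.8% (16.8% to 21.0%) of the 1439 without. Arg2 was found in 35.8% (31.7% to 39.9%) of the cells with Acod1 and 28.8% (26.4% to 31.2%) of those without. Each of these pairs of shares did not overlap. In the Mg library the same pairs overlapped, Ptgs2 at 27.3% (13.3% to 45.5%) and 18.6% (14.3% to 23.6%) and Arg2 at 6.06% (0.743% to 20.2%) and 6.90% (4.26% to 10.5%). In basophil and mast-like cells of the Mg-TAGelMA library, Ptgs2 was found in 23 of 39 cells with Acod1 (59.0%, 42.1% to 74.4%). Among the 40 without Acod1 it was found in 15 (37.5%, 22.7% to 54.2%), and these shares overlap.

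Cells with transcripts of the inflammatory cytokine Il1b or the neutrophil-attracting chemokine Cxcl2 carried the members more often in the Mg-TAGelMA library. Acod1 was found in 40.3% (37.4% to 43.3%) of 1104 cells with Il1b and 11.96% (9.90% to 14.3%) of 886 without. Ptgs2 was found in 29.2% (26.5% to 31.9%) and 14.2% (11.99% to 16.7%), and Arg2 in 35.3% (32.5% to 38.2%) and 24.9% (22.1% to 27.9%). By Cxcl2 the shares were 34.1% and 15.03% for Acod1, 26.3% and 15.2% for Ptgs2, and 33.8% and 24.6% for Arg2, without overlap. In the Mg library only 51 of 323 cells held Il1b, and Ptgs2 was found in 39.2% (25.8% to 53.9%) of them and 15.8% (11.7% to 20.7%) of the others. Acod1 there was found in 11.8% (4.44% to 23.9%) with Il1b and 9.93% (6.64% to 14.1%) without, which overlap, and in 15.2% (10.2% to 21.5%) with Cxcl2 and 4.61% (1.87% to 9.26%) without. Arg2 in the Mg library overlapped in both splits, as did Ptgs2 by Cxcl2 (24.6% and 13.8%). These splits held depth equal but not maturity, and each member was highest in the most mature band. The part of maturity in these gaps was not tested. Cells of 1 library are not replicates of a condition.

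**Figure D5:**
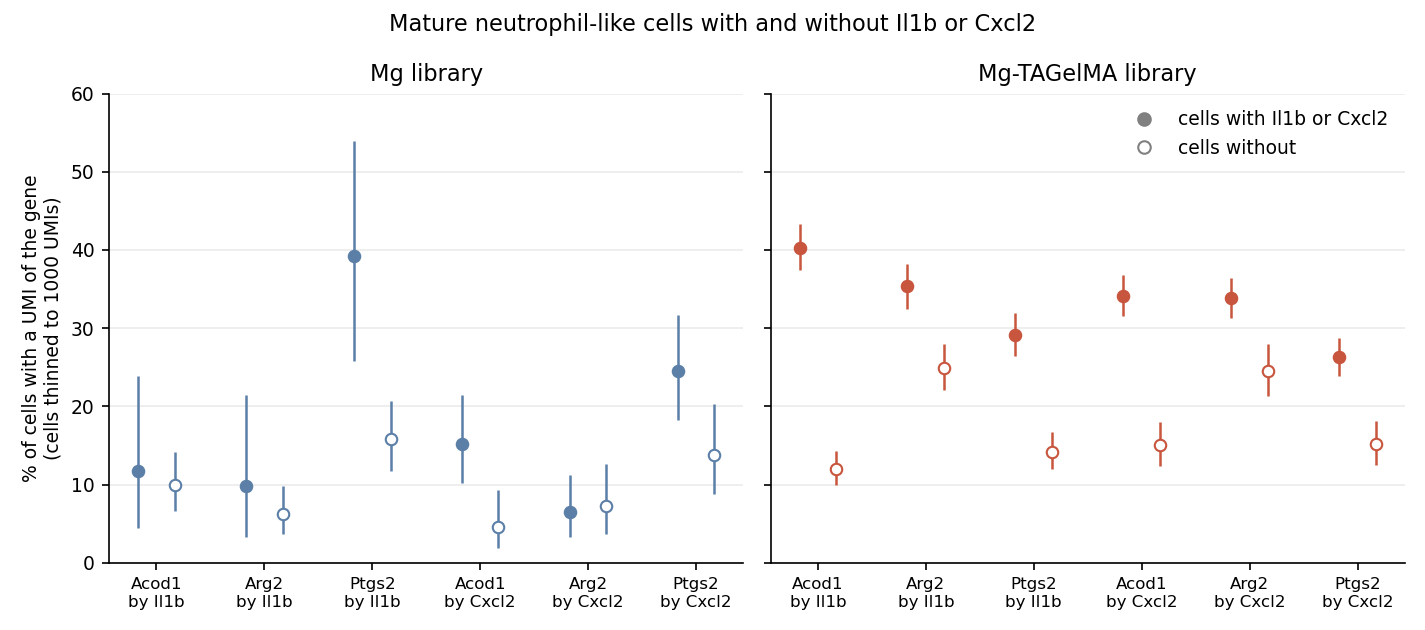
Points give the percent of mature neutrophil-like cells, thinned to 1000 UMIs, that hold a UMI of each member, among cells with (filled) and without (open) a UMI of Il1b or Cxcl2, with exact 95% binomial intervals, for the Mg library (323 cells) and the Mg-TAGelMA library (1990 cells). In the Mg-TAGelMA library the widest gap was for Acod1 by Il1b, 40.3% against 11.96%.

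Across the 9 classes with at least 50 cells in both libraries, the genes whose pattern was most like that of a member were found among 10027 genes. Likeness is the lower of the 2 libraries' Pearson correlations of log2(CPM + 1), over 9 classes that share depth, free RNA and the make-up of the gates, and is a description. For Acod1 they were Cstdc4 (0.95), Ifit1bl2 (0.95), Retnlg (0.93), Asprv1 (0.93) and Map2k4 (0.93). For Arg2 they were Ptgs2 (0.95), Gm28192 (0.94), Stfa2 (0.92), Acod1 (0.91) and Selenon (0.90). For Ptgs2 they were Arg2 (0.95), Slc7a11 (0.94), Cxcl2 (0.94), Osm (0.93) and Tarm1 (0.93). Retnlg is a marker of the mature gate, and basophil and mast-like cells, where Arg2 and the other 2 members part, are not among the 9 classes.

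The neighbours of Acod1 in metabolism and signalling, a list of 29 citric acid cycle, itaconate transport and itaconate response genes, were mixed. In all cells 26 were measured, of which 6 were called higher and 1 lower (15.4% and 7.77% of all genes), with a median log2 ratio of -0.11 against -0.13 over all genes. The 6 were Irf1 (36.5 and 125.1 CPM, 3.43-fold), a transcription factor of the interferon response, Atf3 (46.6 and 115.3 CPM, 2.48-fold), a stress factor, Nfe2l2 (60.7 and 149.9 CPM, 2.47-fold), Rab38 (4.28 and 10.5 CPM, 2.46-fold), Clybl (10.1 and 22.3 CPM, 2.20-fold), an enzyme of itaconate breakdown, and Nfkbiz (61.5 and 131.1 CPM, 2.13-fold), an NF-kappaB cofactor. Abcg2, a membrane exporter, was 2.56-fold lower (38.5 and 15.04 CPM). Nfe2l2 had the highest level of the list. Clybl and Nfkbiz were not called under TMM scaling, nor were they or Rab38 with the total without Gm42418 and AY036118, and Keap1 was called lower in both.

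In mature neutrophil-like cells 19 genes of this list were measured, 2 were called higher and 1 lower (8.4% and 5.72% of all genes), with a median of 0.04 against -0.15. Atf3 had 8 UMIs (9.02 CPM) in the Mg library and 2274 (207.3 CPM) in the other, a ratio of 23.0 (11.6 to 53.3), and Nfe2l2 had 81.2 and 215.7 CPM, a ratio of 2.66 (2.10 to 3.41). Idh1, the cytosolic isocitrate dehydrogenase, was 3.34-fold lower (57.5 and 17.2 CPM), a call lost under TMM scaling. With the total without Gm42418 and AY036118 the call of Nfe2l2 was lost and Keap1 was called lower. Nfkbiz had the highest level of the list in this class. In monocyte-like cells 24 were measured, 3 were called higher and 0 lower (12% and 1.38% of all genes), with a median of -0.10 against 0.05: Clybl (4.39 and 16.5 CPM), Irf1 (52.2 and 165.5 CPM) and Nfe2l2 (96.6 and 263.5 CPM). Atf3 had the highest level there.

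Of 25 arginine and polyamine genes beside Arg2, 19 were measured in all cells, with 2 called higher, 1 lower (15.4% and 7.77% of all genes) and a median of -0.22 against -0.13. Ass1, which remakes arginine from citrulline, was higher at 15.2 and 35.7 CPM (2.36-fold). Smox, the spermine oxidase, was higher at 23.1 and 73.2 CPM (3.17-fold). Ddah2, which clears methylated arginines, was 2.64-fold lower (25.1 and 9.49 CPM). In mature neutrophil-like cells 13 were measured, with 1 called higher and 1 lower (8.4% and 5.72% of all genes). Smox had 17 UMIs (19.2 CPM) and 3364 UMIs (306.7 CPM), a ratio of 15.997 (9.98 to 27.5), and Gatm, of creatine synthesis, was 5.03-fold lower on 13 and 32 UMIs, a call lost under TMM scaling. The median was -0.20 against -0.15. In monocyte-like cells 17 were measured, with Smox alone called higher (14.98 and 65.6 CPM, 4.38-fold), 0 lower (12% and 1.38% of all genes) and a median of -0.01 against 0.05. Oaz1, the antizyme that limits polyamine synthesis, had the highest level of the list in all 3 settings.

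Transcripts of Arg1 and Nos2 were rare. Arg1 had 18 UMIs with the Mg nail and 59 with the other, over all cells (0.326 and 0.781 CPM), with 0 and 3 UMIs in mature neutrophil-like and 1 and 6 in monocyte-like cells. Nos2 had 3 and 18 UMIs (0.0544 and 0.238 CPM), with 0 and 7 in mature neutrophil-like and 0 and 6 in monocyte-like cells. Arg1 in B lineage-like cells stood at 0.448 and 1.70 CPM, above its mature neutrophil-like levels of 0 and 0.274 CPM.

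Of 29 prostanoid and leukotriene genes beside Ptgs2, 15 were measured in all cells, with 6 called higher, 0 lower (15.4% and 7.77% of all genes) and a median of -0.11 against -0.13. The 6 included Tbxas1, the thromboxane synthase (4.75 and 25.1 CPM, 5.29-fold), and the prostanoid exporter Abcc4 (15.4 and 46.0 CPM, 2.98-fold). Also among them were Pla2g4a, the phospholipase that frees arachidonic acid (11.4 and 33.6 CPM, 2.95-fold), and Pla2g7 (13.7 and 34.0 CPM, 2.47-fold). The rest were the leukotriene pathway genes Alox5 (27.6 and 68.0 CPM, 2.46-fold) and Alox5ap (286.0 and 609.1 CPM, 2.13-fold). Alox5ap had the highest level of the list in all 3 settings, and was not called with the total without Gm42418 and AY036118, where Cbr1 was called lower. In mature neutrophil-like cells 13 were measured, 0 called higher and 2 lower (8.4% and 5.72% of all genes), with a median of 0.02 against -0.15. Ptgs1, the constitutive cyclooxygenase COX-1, was 3.35-fold lower (48.5 and 14.5 CPM), and Lta4h, the leukotriene A4 hydrolase, 3.12-fold lower (112.8 and 36.1 CPM). Under TMM scaling Ptgs1 was no longer called and Pla2g7 was called higher.

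In monocyte-like cells 15 genes of this list were measured, 3 called higher and 2 lower (12% and 1.38% of all genes), with a median of 0.38 against 0.05. Hpgds, the prostaglandin D synthase (2.58 and 13.003 CPM), Tbxas1 (17.04 and 54.7 CPM) and Abcc4 (26.9 and 85.0 CPM) were higher. Hpgd, which inactivates prostaglandins, was 3.17-fold lower (105.9 and 33.4 CPM), and Pla2g7 2.56-fold lower (141.3 and 55.1 CPM). Among the called list genes Tbxas1, Abcc4 and Clybl carry 200.1, 217.1 and 219.1 kb of intron, and whether intronic reads were counted alike in both libraries is not given in the sources used here.

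For the members the annotated intron length is 6.97 kb in Acod1, 24.1 kb in Arg2 and 3.62 kb in Ptgs2. In mature neutrophil-like cells, genes with 2 to 8 kb of intron had a median log2 ratio of -0.34 and 3.05% of 1147 were called higher, beside 1.57 for Acod1 and -0.48 for Ptgs2. Genes with 8 to 64 kb had a median of -0.31 and 5.32% of 3573 were called higher, beside 2.19 for Arg2. In all cells the same bands gave medians of -0.40 and -0.19, with 6.58% of 1536 and 9.501% of 4768 genes called higher, beside log2 ratios of 4.12 for Acod1, 4.81 for Arg2 and 2.28 for Ptgs2. The part of intronic reads in the counts of single genes was not tested.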

How the data were processed

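Droplet 3′ RNA libraries (10x Chromium v3 kit, per the labels' protocols) were deposited as unnormalized UMI counts for each gene and cell barcode, made by the authors with Cell Ranger 5.0.0 (Mg) and 7.0.1 (Mg-TAGelMA), per the file headers. STAR and mm10 are named in the submitters' processing notes. Use of intronic reads, the annotation release and pooling of mice are not given in the sources used here. Barcodes with at least 200 genes and at most 15% mitochondrial counts were kept, without 212 and 263 scrublet doublets. A cell took the class with the highest mean capped log marker level, given at least 2 markers. Counts were summed per class and library. Levels have exact Poisson, shares Clopper-Pearson and ratios conditional binomial 95% intervals, and a count of 0 was set to 3 in a ratio. Clusters (Leiden, resolution 1, members left out) served as a check. Alternatives used TMM (edgeR 4.0.16) and size factors (DESeq2 1.42.0, R 4.3.3), and Python 3.11.15, scanpy 1.11.5 and scipy 1.17.1 did the rest. The call rule was also run on simulated Poisson counts with known fold changes. Those counts hold counting error only and cannot show error between libraries, and no test of replicates was possible. Named list genes are those called in all, mature neutrophil-like or monocyte-like cells plus the highest of each list, and the 5 most alike genes per member. Il1b, Cxcl2, Arg1, Nos2, Ptges and the bands were chosen after values were seen. The members and lists were chosen with earlier results of these data known.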

Additional observations from a re-analysis of the deposited data

Results flagged for a closer look

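Ptgs2 moved in opposite directions in 2 cell classes under the same contrast. Its ratio of the Mg-TAGelMA to the Mg library was 0.715 (0.640 to 0.800) in mature neutrophil-like cells and 2.29 (1.76 to 3.01) in monocyte-like cells. The difference between the classes was not tested, since each library is a single sample. After thinning to 1000 UMIs per cell the ratios were 0.934 (0.767 to 1.15) and 1.87 (0.924 to 4.09), and both intervals took in 1.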

How the results depend on the processing

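No paired analysis was possible because each group is 1 library. All 96 ratios of the members recomputed under alternatives kept their direction. In all cells, limiting the total to genes with at most 8 kb of intron gave 19.7 for Acod1 and 5.52 for Ptgs2 (Arg2, with 24.1 kb, has no value there), at least 500 detected genes gave 5.49 for Ptgs2, and leaving out cells near a class boundary, chosen after seeing the data, gave 5.36. In mature neutrophil-like cells TMM, median-ratio size factors and the total without Gm42418 and AY036118 gave 3.62, 3.61 and 2.47 for Acod1 and 0.871, 0.869 and 0.595 for Ptgs2, and thinning gave 0.934 for Ptgs2. In the highest maturity band, added after seeing the data, Arg2 was at 2.19 and no longer wholly beyond 2-fold, and Ptgs2 at 0.530. Thinned monocyte-like cells gave 11.1 for Arg2, with 0 Mg UMIs set to 3 and an exact lower limit of 8.71. They gave 9.67 (1.502 to 405) for Acod1, no longer wholly beyond 2-fold. The limit on intron gave 2.81 (2.17 to 3.70) for Ptgs2, then wholly beyond 2-fold. In monocyte-like cells Leiden classes gave 54.95 (26.5 to 137) for Arg2, 27.1 (10.4 to 100.7) for Acod1 and 2.56 for Ptgs2. They gave no ratio for mature neutrophil-like cells, because 0 Mg cells took that class, and Mg-TAGelMA levels of 507.0, 388.8 and 304.9 CPM for Acod1, Arg2 and Ptgs2. Thinning gave 588.9, 404.5 and 341.2 CPM there, and 1342, 0 and 860.8 CPM in basophil and mast-like cells. Genes past the size rule numbered 2093 in all cells (493 with the limit on intron, which tests fewer genes, and 5016 with no CPM minimum), 968 in mature neutrophil-like cells (206 with that limit) and 1153 in monocyte-like cells (165 with that limit and 504 after thinning). Depth limits the Mg side most, with 71 Arg2 UMIs in mature neutrophil-like and 4 Acod1 UMIs in monocyte-like cells.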
